A study of Mus musculus with 4 samples.

Results

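The genes described here are 37 secreted and membrane proteins at the outer end of Wnt signalling in the mouse: 19 Wnt ligands, 10 Frizzled receptors (Fzd1 to Fzd10), 4 secreted Frizzled-related proteins (Sfrp1, Sfrp2, Sfrp4 and Sfrp5) and 4 Dickkopf antagonists (Dkk1 to Dkk4). They were chosen by family name and not by a cut on any measured value, though with earlier results of these data known. They make up 37 of the 22367 protein-coding genes whose promoters were measured. A promoter is taken here as the window from 1 kb before to 1 kb after the gene-level annotated start, on mm9. The study profiled chromatin of E14TG2a.4 cells, a mouse embryonic stem cell line grown without feeder cells on gelatin in serum with LIF. Of its 4 ChIP-seq libraries, 2 were precipitated for Jarid1b, the protein encoded by Kdm5b, from cells labelled only as E14 ESCs. The other 2 were precipitated for trimethylated lysine 4 of histone H3 (H3K4me3). For H3K4me3, 1 library came from cells carrying a scramble shRNA lentivirus (LKO Scr) and 1 from cells carrying a Jarid1b shRNA lentivirus (LKO Jarid1b), and puromycin was used to select transduced cells. Both H3K4me3 groups were therefore infected and selected, there was 1 library a condition, and the labels do not say whether libraries came from separate cultures.

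Wnt proteins are lipid-modified signals that are secreted by one cell and bind Frizzled receptors, together with Lrp5 or Lrp6, on another. In the canonical branch this stops the destruction of β-catenin, which then acts with Tcf/Lef factors on target genes, while other branches direct cell polarity and movement. Sfrp proteins resemble the Frizzled ligand-binding domain and bind Wnts outside the cell, whereas Dkk1, Dkk2 and Dkk4 act on the Lrp coreceptors. Embryonic stem cells keep many developmental promoters in a silent or poised state, and H3K4me3 around the start site is a mark of active and poised promoters. Jarid1b is an enzyme that takes this mark off, so the comparison of the H3K4me3 libraries asks how the mark at these promoters differs when Jarid1b is targeted.

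The promoters that carried the extremes of the measurements differ visibly in sequence, and 5 are shown. Wnt6 and Wnt10a had the highest knockdown to scramble ratios of H3K4me3 among the members, Wnt16 was among the lowest, and Fzd4 and Wnt7a had the highest mean Jarid1b enrichment among members enriched in both Jarid1b libraries. Each line is the 250 bases that end just before the annotated start, written 5′ to 3′ along the gene's strand from the mm9 assembly, with every CpG in capitals.
Wnt6: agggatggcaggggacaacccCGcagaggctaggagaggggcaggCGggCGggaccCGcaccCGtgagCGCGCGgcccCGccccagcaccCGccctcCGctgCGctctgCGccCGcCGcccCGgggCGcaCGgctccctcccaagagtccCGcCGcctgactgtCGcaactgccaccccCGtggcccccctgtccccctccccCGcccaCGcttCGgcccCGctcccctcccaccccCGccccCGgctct
Wnt10a: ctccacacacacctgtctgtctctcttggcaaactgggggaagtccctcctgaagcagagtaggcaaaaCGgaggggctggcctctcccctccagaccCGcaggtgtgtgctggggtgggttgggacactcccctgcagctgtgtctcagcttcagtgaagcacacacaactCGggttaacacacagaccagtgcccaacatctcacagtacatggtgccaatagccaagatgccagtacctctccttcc
Wnt16: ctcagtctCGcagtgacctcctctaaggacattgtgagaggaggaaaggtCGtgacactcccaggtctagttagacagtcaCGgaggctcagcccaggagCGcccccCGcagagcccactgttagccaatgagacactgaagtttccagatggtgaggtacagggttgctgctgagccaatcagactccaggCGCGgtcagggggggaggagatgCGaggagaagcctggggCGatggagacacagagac
Fzd4: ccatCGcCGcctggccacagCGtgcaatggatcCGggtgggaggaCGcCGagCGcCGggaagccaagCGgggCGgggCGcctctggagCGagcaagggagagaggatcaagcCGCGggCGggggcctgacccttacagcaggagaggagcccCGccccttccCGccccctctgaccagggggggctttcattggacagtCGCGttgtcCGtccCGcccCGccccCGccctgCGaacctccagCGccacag
Wnt7a: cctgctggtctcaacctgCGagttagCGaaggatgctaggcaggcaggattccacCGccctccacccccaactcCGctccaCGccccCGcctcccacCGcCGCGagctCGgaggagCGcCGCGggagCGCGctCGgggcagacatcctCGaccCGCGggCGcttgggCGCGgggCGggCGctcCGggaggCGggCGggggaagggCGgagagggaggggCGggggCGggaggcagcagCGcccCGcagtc

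The Wnt6 stretch (chr1:74818216-74818465, plus strand) held 28 CpG and 79.6% G or C, while that of its neighbour Wnt10a (chr1:74837840-74838089, plus strand) held 3 CpG and 57.6%. The pair with the highest ratios thus included both a CpG-rich and a CpG-poor upstream stretch. Wnt16 (chr6:22237977-22238226, plus strand) held 9 CpG at 59.2% GC. The Jarid1b-enriched pair was CpG-rich: Fzd4 (chr7:96552626-96552875, plus strand) held 25 CpG and Wnt7a (chr6:91361358-91361607, minus strand) 32.

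Depth and composition set what can be read from these libraries. After 1 read was kept per position and strand, 4336767 and 1602370 reads remained in Jarid1b replicates 1 and 2, 5158330 in the scramble and 2635705 in the knockdown H3K4me3 library. This step removed 31.5% of the scramble reads but 7.56% of the knockdown reads, so the share of repeats differs along with the condition. The Jarid1b files share fragments, since 16.8% of 867735 plus-strand positions of replicate 2 stood at the same base in replicate 1 against a median of 1.76% at other offsets, so they are counted as 1 sample. The H3K4me3 libraries also differ in base composition: in bins away from promoters and from marked regions, the log2 ratio of knockdown to scramble reads went from −0.65 in the lowest GC class to 1.29 in bins of 65% GC or more. The members lie on the GC-rich side, with a median promoter GC content of 60.1% (range 44.5 to 70.2%) against 51.2% over all promoters. Of 9 stem cell markers, 8 carried H3K4me3 in the scramble library, the exception being Esrrb with 3 scramble and 0 knockdown reads at its gene-level start. Of those 8, 4 were lower by at least 2-fold in the knockdown library, as were 2.37% of all promoters compared. These were Nanog (−1.23 on the log2 scale), Zfp42 (−1.43), Tdgf1 (−1.17) and Dppa5a (−1.12). Pou5f1 was at −0.70 without a call, while Klf4 (0.69), Tcfcp2l1 (0.24) and Sox2 (0.23) were above 0. The 4 lower promoters had GC contents from 44.65 to 50.35%. Over all promoters compared, the median ratio was −0.47 in the class at 45% GC and 0.04 at 51%. The summed level of all 9 stem cell markers went from 320.1 to 244 RPM (reads per 1000000 reads kept). Fibroblast markers were marked at 2 of 8 promoters in each library, blood and liver markers at 0 of 6, and neuron markers at 4 of 5. The marked fibroblast promoters were Thy1 and Pdgfrb in scramble, and Thy1 and Col1a2 in knockdown. Summed levels went from 8.92 to 17.8 RPM for fibroblast, from 2.71 to 1.14 for blood and liver, and from 51.8 to 67.5 for neuron markers. Only 1 fibroblast, 0 blood and liver and 4 neuron markers were among the promoters compared, and none of them was called higher or lower. For the other markers no call was possible. Lum was at 0 in the scramble library, and Col3a1 and Dcn were at 0 in the knockdown library. The part of cell state, of GC composition or of other cells in the differences below was not tested, except where GC-adjusted values are given. The promoter of Kdm5b held 153 scramble and 155 knockdown reads (log2 ratio 0.99), which does not check the knockdown, since an shRNA acts on the transcript.

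In scramble cells H3K4me3 divided the families. Within each library, a promoter was called marked when its reads exceeded both the rate over the genome and the rate in the 10 kb flanking it on each side (one-sided Poisson test, Benjamini-Hochberg adjusted over all promoters, threshold 0.05). All 10 Frizzled and all 4 Sfrp promoters were marked, as were 3 of 4 Dkk and 14 of 19 Wnt promoters, or 31 of 37 members, where 60% of all protein-coding promoters were called. RPM in windows of the same length put the families in order. The median Frizzled promoter stood at 15.8 RPM and the median Sfrp promoter at 13.7, against 2.91 for Dkk, 2.33 for Wnt and 6.01 for all promoters. Frizzled promoters held 29 to 130 reads, Sfrp promoters 51 to 81, Wnt promoters 3 to 41 and Dkk promoters 4 to 20. The ranges of Sfrp and Wnt did not overlap, and of the receptors only Fzd1, with 29 reads, lay inside the range of the ligands. Fzd7 was highest with 130 reads (25.2 RPM), followed by Fzd10 with 112 and Fzd4 with 110, counts that lie within each other's counting error. The best marked ligands were Wnt9a with 41 reads (7.95 RPM) and Wnt5b with 40.

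Unmarked in the scramble library were Wnt1, Wnt5a, Wnt8b, Wnt10a, Wnt10b and Dkk4, with 3 to 10 reads each. Wnt1, which patterns the midbrain and hindbrain, held 3 reads, and Wnt8b, a forebrain ligand, held 5. In the knockdown library 33 members were marked, with 59.9% of all promoters called there. Wnt5a, the main ligand of the noncanonical branch, and Wnt10a, a ligand of teeth and skin appendages, were marked in the knockdown library alone, and Wnt1, Wnt8b, Wnt10b and Dkk4 in neither. Thinning the scramble library to the knockdown depth left 26 marked members instead of 31, so lower depth alone would have reduced the count.

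**Figure D1:**
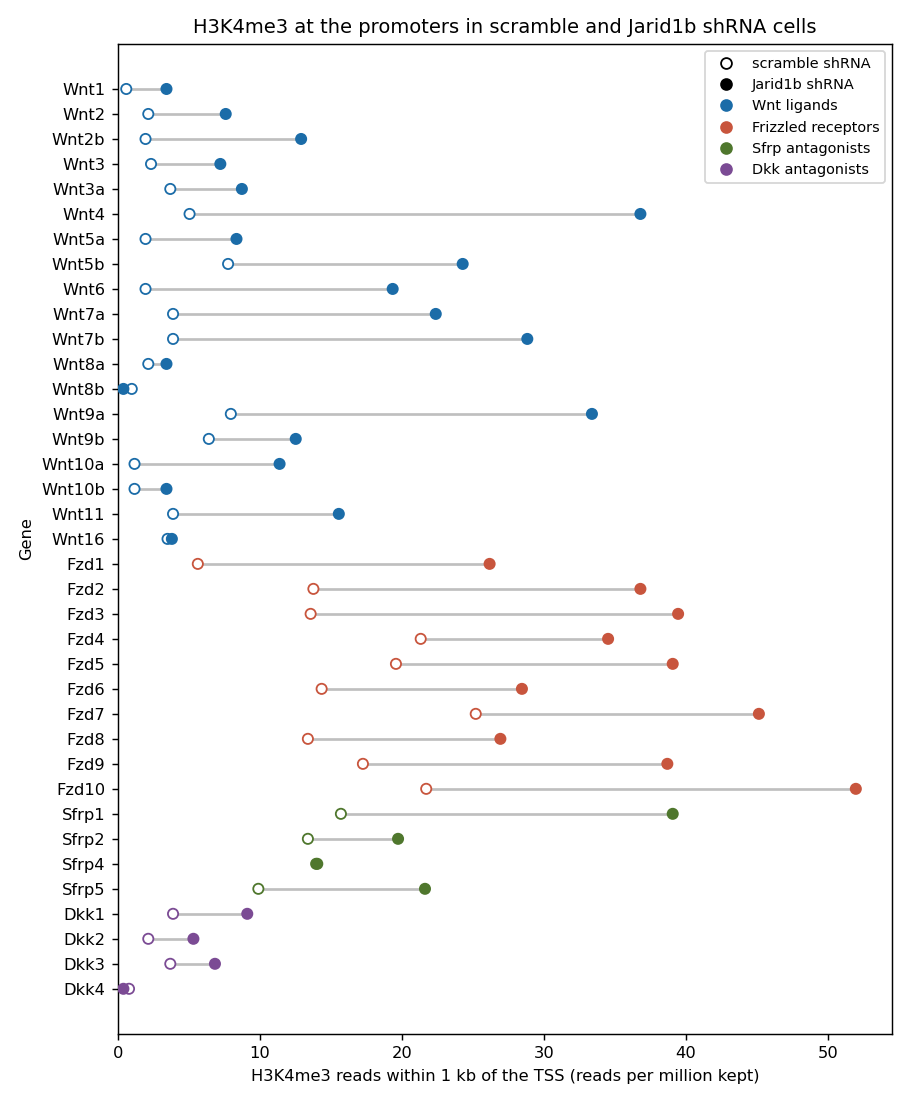
H3K4me3 level of each of the 37 promoters in RPM on a linear axis that starts at 0, with an open point for the scramble and a filled point for the knockdown library, joined by a line and coloured by family. There is 1 library a condition and no error bar is drawn. Frizzled and Sfrp promoters sit mostly above 10 RPM in both libraries, while the Wnt promoters start at a median of 2.33 RPM in scramble and stand at a median of 11.4 RPM in knockdown.

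Between the libraries the family medians went from 2.33 to 11.4 RPM for Wnt, from 15.8 to 37.8 for Frizzled, from 13.7 to 20.7 for Sfrp and from 2.91 to 6.07 for Dkk, and from 6.01 to 9.49 over all promoters. The ratio was taken for promoters marked in the scramble or the knockdown library and holding 20 or more reads in sum, which left 33 members. A promoter was called higher or lower at a ratio of 2-fold or more with a 95% interval that excluded no change (exact Clopper-Pearson, conditional on the summed reads). These intervals cover counting error only, reads carry no molecular identifiers and so may repeat a molecule, and 1 library a condition allows no test between conditions. All 33 ratios were above 0 on the log2 scale, 23 were called higher and 0 lower, where 24% of the 13273 promoters compared were called higher, 2.37% lower, and 69.5% were above 0. By family, 13 of 16 Wnt, 6 of 10 Frizzled, 2 of 4 Sfrp and 2 of 3 Dkk promoters were called higher. The median log2 ratio was 1.32 over the 33 members, against 0.41 over all promoters compared. It was 2.04 for Wnt, 1.09 for Frizzled, 0.84 for Sfrp and 1.23 for Dkk. With the background bins' GC trend removed, an adjustment chosen after seeing the data, the family medians became 1.10, 0.06, −0.12 and 0.50, so the Sfrp median changed sign and the Frizzled median came close to 0. Under that adjustment 9 members were still called higher (8 Wnt and Fzd1), and 3.78% of all promoters. With scaling to the median of all promoters 15 members and 12% of all promoters were called, and with the promoter GC trend removed 15 and 17.8%.

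The choice of promoters compared favours positive ratios at weakly marked genes, since a promoter with 10 scramble reads enters only with at least 10 in the knockdown library, and Wnt5a and Wnt10a entered through the knockdown call alone. Without that choice, over all 37 members, 24 were called higher and 35 ratios were positive, with a median of 1.32, where 17.5% of the 19005 promoters with a read in both libraries were called higher and 64.8% were positive. Over the 31 members marked in the scramble library, 21 were called higher, with a median of 1.26, where 22.5% of all such promoters were called. The added member among the 37 was Wnt1, with 3 scramble and 9 knockdown reads (2.55, interval 0.55 to 5.08).

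**Figure D2:**
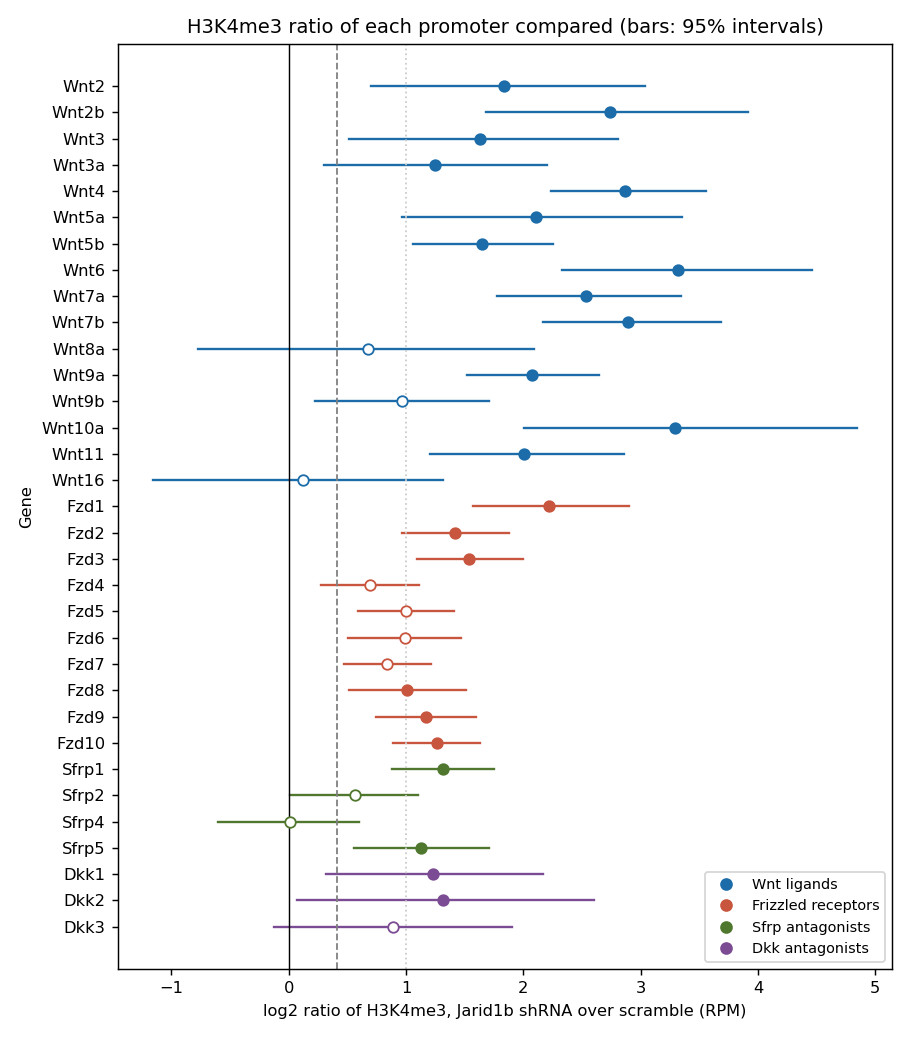
Log2 ratio of knockdown to scramble H3K4me3 in RPM for the members, with the exact 95% interval of counting error and vertical lines at no change, at the median of all promoters compared (0.41, dashed) and at 2-fold (dotted). Filled points are called higher. The ligands Wnt6, Wnt10a, Wnt7b and Wnt4 are farthest to the right and Sfrp4 and Wnt16 lie at no change. With the background bins' GC trend removed the Frizzled median falls to 0.06 and the Sfrp median to −0.12.

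Among the ligands the highest ratios came from promoters that were faint in scramble cells. Wnt6, expressed in epithelia such as the ectoderm over the somites, held 10 reads in scramble (1.94 RPM) and 51 in knockdown (19.3 RPM), giving 3.32 on the log2 scale (2.32 to 4.46). Wnt10a held 6 and 30 reads (1.16 and 11.4 RPM), a ratio of 3.29 (2.00 to 4.85). Wnt7b, a ligand of lung and placenta development, held 20 and 76 reads (3.88 and 28.8 RPM), a ratio of 2.89 (2.17 to 3.68). Each of these 3 was higher in the knockdown than in the scramble library, with an interval that excluded no change. Wnt10a was no more than at the family's median in knockdown, and Wnt7b was above it. Wnt4, which acts in kidney tubule and ovary formation, held 26 and 97 reads (5.04 and 36.8 RPM), a ratio of 2.87 (2.23 to 3.55), at the most GC-rich member promoter (70.2%). Wnt2b, a ligand of lung and eye development, held 10 and 34 reads (ratio 2.73, 1.68 to 3.92). Wnt7a, which sets the dorsal side of the limb, held 20 and 59 reads (3.88 and 22.4 RPM), a ratio of 2.53 (1.78 to 3.34). These 6 promoters also stayed above the 2-fold call with the ratio scaled to the median of all promoters, with the promoter GC trend removed and with the background GC trend removed. Under the last, Wnt6 stood at 2.05, Wnt10a at 2.33, Wnt7b at 1.37 and Wnt4 at 1.34.

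Smaller ratios followed in the other 7 ligands called higher. Wnt5a held 10 and 22 reads (1.94 and 8.35 RPM), a log2 ratio of 2.11 (0.97 to 3.35). Wnt9a, a ligand of joint formation, held 41 and 88 reads, a ratio of 2.07 (1.52 to 2.64), and was the best marked ligand in scramble cells. Wnt11, which acts in cell movements and kidney branching, held 20 and 41 reads, a ratio of 2.00 (1.2 to 2.85). Their intervals overlap widely, so the order among them is not resolved at this depth. Wnt2 held 11 and 20 reads (1.83), Wnt5b 40 and 64 (1.65), Wnt3 12 and 19 (1.63) and Wnt3a 19 and 23 (1.24, 0.30 to 2.20). Wnt3 and Wnt3a are the ligands of primitive streak and tail bud formation, and Wnt3a had the lowest ratio of the 13 ligands called higher. With the background GC trend removed Wnt9a (0.80), Wnt11 (0.99), Wnt5b (0.38), Wnt3 (0.67) and Wnt3a (0.23) were no longer called, while Wnt5a (1.29) and Wnt2 (1.22) were. Wnt5b and Wnt3a were also not called with the promoter GC trend removed, nor Wnt3a with median scaling.

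The other ligands did not pass the rule. Wnt9b, which induces kidney tubules, held 33 reads in each library (6.40 and 12.5 RPM), a log2 ratio of 0.97 (0.23 to 1.71), just under 2-fold. Wnt8a, a primitive streak ligand, held 11 and 9 reads (0.68, −0.77 to 2.09), and Wnt16 held 18 and 10 (0.12, −1.16 to 1.31). The Wnt8a and Wnt16 promoters have GC contents of 52% and 54.5%. At Wnt16 a 2-fold difference in either direction lies inside the counting interval, so none was detectable at this depth. Wnt8b (5 and 1 reads), Wnt10b (6 and 9) and Wnt1 (3 and 9) were marked in neither library and were not compared.

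Some Wnt genes lie next to each other on a chromosome, and 4 such pairs are among the members. Wnt6 and Wnt10a start 19624 bases apart on chromosome 1 and had nearly equal ratios, 3.32 and 3.29. Wnt3a and Wnt9a, 16176 bases apart on chromosome 11, had ratios of 1.24 and 2.07, with intervals that overlap. Wnt3 and Wnt9b, 24329 bases apart on the same chromosome, had 1.63 and 0.97, also with overlapping intervals. Wnt1 and Wnt10b, 11707 bases apart on chromosome 15, were unmarked at the gene-level start in both libraries. Except for Wnt3 and Wnt9b, these neighbours are close enough to share part of their flanking background, so their calls are not independent.

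The receptors were already marked in scramble cells and had smaller ratios. Fzd1 stood apart, with 29 and 69 reads (5.62 and 26.2 RPM) and a log2 ratio of 2.22 (1.57 to 2.90). It was both the receptor with the fewest scramble reads and the one with the highest ratio. Fzd3, a receptor of axon guidance, held 70 and 104 reads (1.54, 1.09 to 2.00), and Fzd2 held 71 and 97 (1.42, 0.96 to 1.88). Fzd10 held 112 and 137 reads (1.26), Fzd9 89 and 102 (1.17) and Fzd8 69 and 71 (1.01). Fzd5, a receptor of eye and yolk sac development, fell just outside the call with 101 and 103 reads (0.997, 0.59 to 1.41), while Fzd8 with almost the same ratio fell just inside it. Fzd6 held 74 and 75 reads (0.99), Fzd7 130 and 119 (0.84) and Fzd4, the receptor that also binds the retinal vessel signal Norrin, 110 and 91 (0.70, 0.28 to 1.11). With the background GC trend removed Fzd4 (−0.58), Fzd5 (−0.02), Fzd7 (−0.18), Fzd8 (−0.26) and Fzd10 (−0.27) turned negative, so for these 5 receptors the direction depends on how base composition is treated. Fzd4 was then below 0 with an interval of −0.99 to −0.16, and Fzd1 (1.26) was the only receptor still called higher. With median scaling Fzd1, Fzd2 and Fzd3 were called, and with the promoter GC trend removed Fzd1, Fzd3 and Fzd6.

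Among the secreted antagonists Sfrp1 held 81 and 103 reads (15.7 and 39.1 RPM), a log2 ratio of 1.32 (0.88 to 1.75), and Sfrp5 held 51 and 57 (1.13, 0.56 to 1.70). Sfrp2 held 69 and 52 reads (0.56, 0.01 to 1.10), and Sfrp4 held 72 and 37, which is 14 RPM in both libraries (0.01, −0.60 to 0.60). In RPM Sfrp4 was thus the member compared whose level differed least, and its interval excludes a 2-fold difference in either direction. A 2-fold decrease was not excluded with median scaling (−1.01 to 0.19) or with the background GC trend removed (−1.02 to 0.18). Sfrp2 became negative (−0.02 with the promoter GC trend removed and −0.46 with the background GC trend removed), and Sfrp4 became negative with median scaling (−0.40) and with the background GC trend removed (−0.41). No Sfrp promoter was called under median scaling or either GC adjustment, with Sfrp1 at 0.35 and Sfrp5 at 0.17 under the background GC trend. Dkk1, an inhibitor needed for head formation, held 20 and 24 reads (1.23, 0.31 to 2.16) and Dkk2 held 11 and 14 (1.32, 0.07 to 2.60). Dkk3, a divergent family member, held 19 and 18 (0.89, −0.12 to 1.90), and Dkk4 held 4 and 1 and was not compared. Dkk1 kept its call only with the promoter GC trend removed (1.46), and Dkk2 under none of these 3 settings. Dkk1 lay at 52.4% GC, among promoters of which few were called higher: 8.20% of the 6999 with GC under 55%. That share takes no account of its low scramble level. Its ratio exceeded 94.1% of the promoters within 1 percentage point of its GC content, and 80.3% of the 233 also within 1.5-fold of its scramble level.

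Both GC content and the starting level went with the ratio. The scramble count sets the starting level and is also the denominator of the ratio, so counting error alone can make that correlation negative. Across the 33 members, which are not independent replicates and share the same pair of libraries, the ratio had a Pearson r of 0.51 with GC content and −0.50 with the scramble level (Spearman rho 0.42 and −0.48). Over 13272 promoters the r values were 0.62 and −0.41. Members were therefore placed among all promoters within 1 percentage point of their own GC content. The median Wnt promoter exceeded 91.9% of them, and 15 of 16 lay above the 50% point. Wnt6 exceeded 99.5% and Wnt10a 99.8%. Frizzled promoters lay near the middle, with a median of 52.5% and 5 of 10 above the 50% point, as did Sfrp promoters with 53.5%, while the 3 Dkk promoters had a median of 87.3%.

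When these comparison promoters were also limited to a scramble level within 1.5-fold, the median place of the ligands was 74.1%, with 11 of 16 above the 50% point and only Wnt7a above 90% (90.8%). The comparison sets then held 10 to 530 promoters, and the scramble count that sets the level is also in the ratio, so a chance low count enters both. For Frizzled promoters the median place was 56.8%, with Fzd1 at 94.5%, and for Sfrp and Dkk it was 35.9% and 52.3%. In plain classes, 38.3% of the promoters with 55 to 65% GC were called higher, and 18 of the 24 members there. Within that class, 70.2% of the 1619 promoters with at most 50 scramble reads were called, and 12 of 14 members. Of the 4142 with more reads 25.8% were called, and 6 of 10 members.

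**Figure D3:**
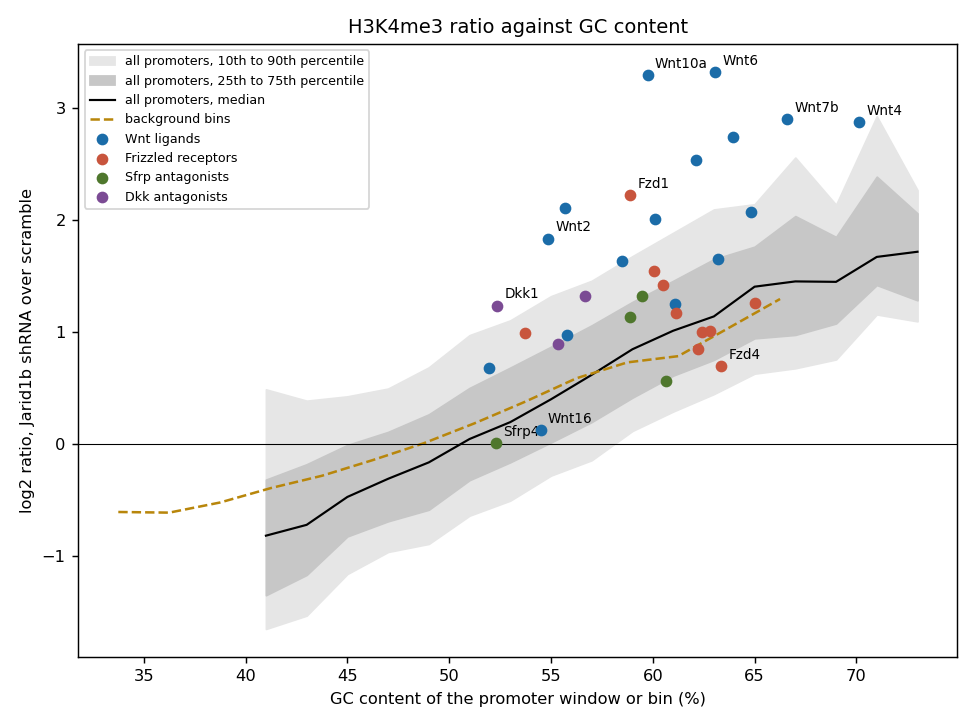
Log2 ratio of H3K4me3 against promoter GC content, with 1 point per member, coloured by family, over the median (black line) and the spread between percentiles (grey) of all promoters compared in each GC class. The dashed line is the same ratio in background bins. The class median climbs from −0.82 at 41% GC to 1.71 at 73% GC, and the Wnt points lie mostly above the curve while the Frizzled points lie around it.

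The mark also differed in shape. In the first 1 kb downstream of the start, the 10 Frizzled promoters together held 618 reads in scramble and 786 in knockdown, or 1.32 on the log2 scale (1.16 to 1.47). From 1 to 3 kb downstream they held 653 and 434, a ratio of 0.38 (0.20 to 0.56). These intervals do not overlap, so the receptors' summed ratio was larger in the first 1 kb downstream than from 1 to 3 kb. In the 1 kb upstream of the start it was 0.58 (0.30 to 0.87), an interval that overlaps only that of 1 to 3 kb. The larger ratio thus lay on the downstream side and not on both sides of the start. All promoters showed the same order with smaller values, 0.43 in the first 1 kb downstream, 0.18 upstream and 0.10 from 1 to 3 kb. In the 16 ligands the ratio was 2.21 (1.96 to 2.46) in the first 1 kb and 1.79 (1.34 to 2.24) from 1 to 3 kb, with overlapping intervals. Fzd7 shows the contrast in a single gene: 98 and 106 reads in the first 1 kb (1.08, 0.67 to 1.49) against 199 and 80 from 1 to 3 kb (−0.35, −0.74 to 0.04). Fzd2 had 1.68 and −0.33 in the same zones. Fzd5 and Fzd7 hold most of the receptors' reads beyond 1 kb, and without them, a check added after seeing the data, the ratios were 1.4 (1.22 to 1.58) and 0.55 (0.21 to 0.88). The order of the downstream zones was the opposite at Fzd8 (0.82 in the first 1 kb and 0.93 from 1 to 3 kb) and at Fzd9 (1.14 and 1.75, the latter from 7 and 12 reads). Under any common rescaling all zones move together, so the gap between zones is not altered by library scaling, though GC content can differ between zones and was not adjusted here.

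**Figure D4:**
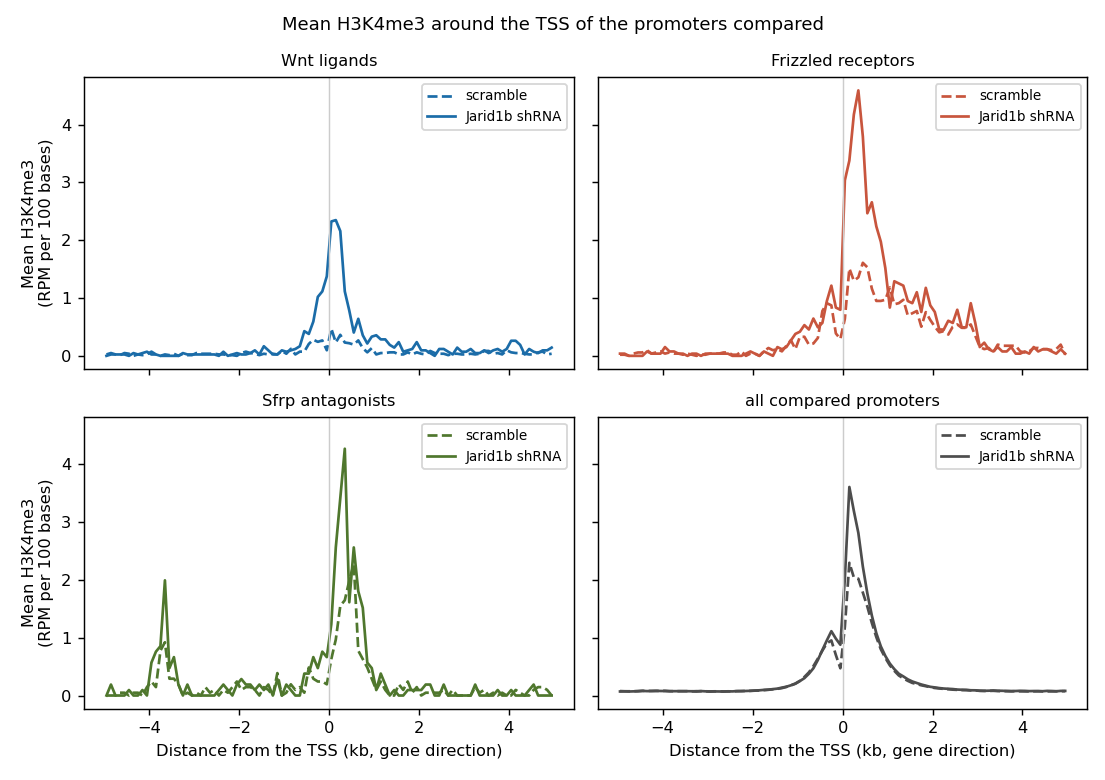
Mean H3K4me3 in RPM per 100 bases from 5 kb upstream to 5 kb downstream of the start, for the Wnt, Frizzled and Sfrp families and for all promoters compared, in the scramble and knockdown libraries. The Wnt profile peaks at 0.473 in scramble and 2.35 in knockdown, and the Frizzled profile at 1.61 and 4.59, each within 500 bases downstream of the start. The upstream peak in the Sfrp panel lies on the far side of the start of Epdr1, which is 3274 bases from that of Sfrp4.

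Marked stretches were measured as runs of adjacent 1 kb bins above the genome rate. Fzd5 had the widest, 9 kb in both libraries, and Fzd7 had 5 kb in both, while the median Frizzled stretch was 3 kb in each library. The median ligand stretch was 1 kb in scramble, 0 kb in scramble thinned to the knockdown depth and 2 kb in knockdown. Against the thinned library the stretch was wider in knockdown at 15 of 19 Wnt, 4 of 10 Frizzled, 3 of 4 Sfrp and 3 of 4 Dkk promoters, or 25 of 37 members, where 16.5% of all promoters were wider. Of the 13429 promoters marked in scramble, 3163 were wider. The stretches were not adjusted for GC content, although the members are GC-rich and the knockdown to scramble ratio of background bins rises with GC. The part of GC content in the wider stretches was not tested. Wnt1, Wnt10b and Wnt5a, which had no marked bin at the start in scramble, had 4, 3 and 3 kb in knockdown. The promoters of Wnt1 and Wnt10b held only 9 knockdown reads each, and were not marked in knockdown by the call that also uses the flanking rate.

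Other annotated starts of the same genes added detail. At the Wnt1 start 1834 bases downstream there were 6 scramble and 20 knockdown reads (log2 ratio 2.71, 1.34 to 4.31), and at the Wnt10b start 889 bases downstream 9 and 19 (2.05, 0.83 to 3.37). So the neighbours that were unmarked at the gene-level start had ratios like those of other ligands slightly further in. Wnt5a differed between its starts: 11 and 29 reads at the start 1150 bases downstream (2.37), but 19 and 12 at 5868 bases (0.31) and 16 and 7 at 6640 bases (−0.22). Wnt5b had 20 and 7 reads at a start 94932 bases downstream (−0.55). Windows at nearby starts overlap and share reads. With the best marked start taken for each gene, 25 members were called higher, where 23.9% of 14029 promoters were called in the same way. Within 2 kb of some member starts lies the start of another gene (Tmem135 at 144 bases from Fzd4, and noncoding RNAs at Wnt7b, Fzd6 and Fzd10), and their mark cannot be told apart from that of the member.

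Jarid1b itself was enriched at 11 of 37 member promoters in both Jarid1b libraries, where 7.97% of all promoters were called in both. These were the ligands Wnt2b, Wnt3a, Wnt6, Wnt7a, Wnt10b and Wnt16 and the receptors Fzd1, Fzd4, Fzd8, Fzd9 and Fzd10, and none of the Sfrp or Dkk promoters. Fzd4 held 18 and 9 reads in replicates 1 and 2, or 4.62-fold (95% Poisson interval 2.74 to 7.29) and 7.19-fold (3.29 to 13.6) over background. Wnt7a held 21 and 9 reads, 3.62-fold (2.24 to 5.53) and 6.92-fold (3.17 to 13.1). Fzd1 held 20 and 7 reads (4.08-fold and 5.59-fold) and Fzd9 21 and 12 (3-fold and 6-fold). Each call thus rests on few reads, and the folds of the enriched members overlap. With windows of 500 bases on each side 5 members passed in both libraries, where 5.84% of all promoters did, and at an adjusted p of 0.001 3 members passed, where 1.42% did.

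Calls in replicate 1, the deeper library, covered 32 of 37 members, where 26.8% of all promoters were called, and calls in replicate 2 covered 11, against 10.7%. Several members fell short in replicate 2 alone, such as Fzd3 with 19 and 3 reads (5.14-fold and 2.40-fold), Sfrp1 with 23 and 6 (4.18-fold and 2.61-fold) and Dkk1 with 14 and 5 (4.13-fold and 2.94-fold). Wnt8b (0.77-fold and 0.71-fold) and Dkk4 (0.48-fold and 0.38-fold) lay below background in both. The median fold was 3.93 and 3.11 for Frizzled and 3.03 and 2.44 for Wnt promoters in replicates 1 and 2, against 1.47 and 1.54 over all promoters. Base composition goes with these calls too: among promoters of 55 to 65% GC, 19.2% were called in both libraries and 53.9% in replicate 1, against 9 and 23 of the 26 members there. When the background was also required to reach the rate of bins of the same GC content, 0 members passed in both libraries, 9 in replicate 1 and 0 in replicate 2, and 0.528% of all promoters passed in both. No IgG or input library was used here, so an antibody-independent excess at GC-rich promoters cannot be told apart from Jarid1b binding.

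**Figure D5:**
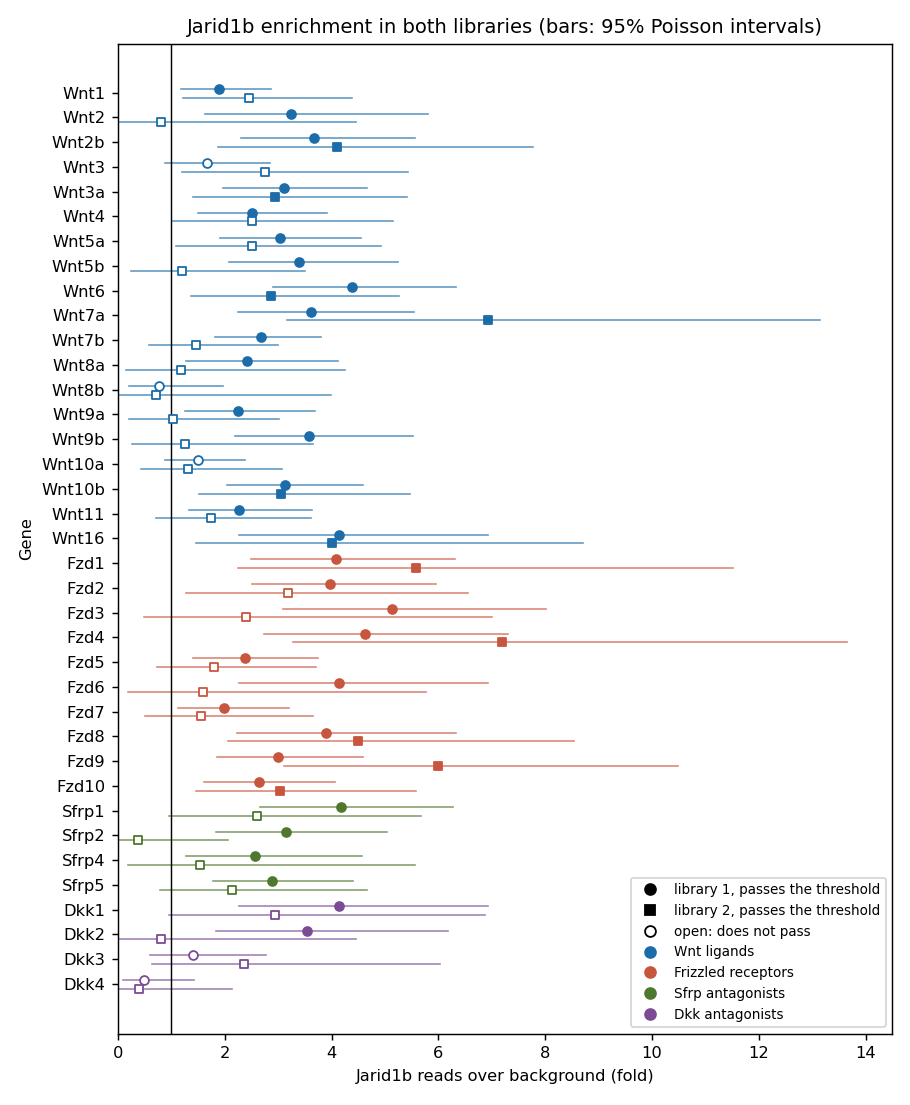
Jarid1b reads over background at each member promoter in the 2 Jarid1b libraries, with exact 95% Poisson intervals and a line at 1-fold. Circles are replicate 1, squares are replicate 2, and filled points pass the threshold. Fzd4 (4.62-fold and 7.19-fold) and Wnt7a (3.62-fold and 6.92-fold) have the highest means among members called in both, and Wnt8b and Dkk4 lie below 1-fold. None of the members passes in both libraries against a background of the same GC content.

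Jarid1b enrichment and the H3K4me3 ratio were then set side by side. Of the 10 Jarid1b-enriched members that were compared, 8 were called higher in the knockdown library, as were 15 of the 23 others. Of all promoters compared, 24% were called higher. The grouping rests on the background without GC matching, since 0 of 37 members passed in both libraries against a background of the same GC content. Across the 33 members the mean Jarid1b enrichment had a Pearson r of 0.01 with the ratio (rho 0.08), and 0.32 over 13272 promoters. Over those promoters GC content had an r of 0.62 with the ratio, and the part of GC content in the 0.32 was not tested. Wnt16 is the example at the low end, with 4.13-fold and 4.00-fold Jarid1b and a ratio of 0.12, and Wnt10a at the other, with 1.5-fold and 1.32-fold and a ratio of 3.29.

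The rest of the Wnt pathway was measured through 59 further genes in lists made from textbook roles, of which 51 were compared, 28 were called higher and 0 lower, with a median log2 ratio of 1.22, against 24% higher, 2.37% lower and a median of 0.41 over all promoters compared. Alternatives added after seeing the data left 18 of the 51 higher with median scaling, 15 with the promoter GC trend removed and 1 with the background GC trend removed. In the same order, 12%, 17.8% and 3.78% of all promoters compared were called higher. The counts by list that follow use the ratio without these adjustments. Near the members' own level of the pathway, 6 of 8 genes for R-spondins and their receptors were called higher (Rspo1 1.75, Rspo4 0.38), as were 4 of 8 coreceptors and other Wnt receptors (Lrp5 1.85, Kremen1 0.36). Of the other secreted antagonists 1 of 2 compared was called (Frzb 1.29, Wif1 0.39), and of the ligand secretion genes 1 of 3 (Notum, which removes the Wnt lipid, 1.22, and Wls, the Wnt carrier, 0.25). Inside the cell, 3 of 9 genes of Dishevelled and the β-catenin destruction complex were called (Axin2 1.71, Dvl2 −0.14) and 4 of 9 Tcf/Lef factors and partners (Pygo1 1.87, Bcl9 −0.22). Feedback inhibitors had 5 of 6 called (Nkd1 1.83, Dact3 0.88) and planar cell polarity genes 4 of 6 (Celsr1 1.90, Prickle2 0.71). The ligands, with 13 of 16, and the feedback inhibitors had the highest shares called higher of these lists, though the lists are small and the differences between them were not tested. Jarid1b was enriched in both libraries at 8 of the 59: Rspo1, Rspo2, Lgr5, Ptk7, Frzb, Nkd1, Cxxc4 and Prickle1. Over all promoters 7.97% were called, and 19.2% of those with 55 to 65% GC, and against a background of the same GC content 0 of the 59 passed.

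Since several Wnt genes are targets of their own pathway, the promoters were searched for the core letters of Tcf/Lef sites, CTTTGAT and CTTTGAA, on both strands from 250 bases before to 50 bases after the start. CTTTGAT was found in 3.46% of all promoters and in 3 of 37 members (Wnt8a, Wnt11 and Dkk4), and CTTTGAA in 4.75% and in Dkk4 alone. Either was present in 8% of all promoters and 8.11% of members. None of the 5 members whose upstream sequence is printed held either motif.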

How the data were processed

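The data were 4 ChIP-seq libraries of mouse E14 embryonic stem cells. The deposited files list 1 aligned read a row (chromosome, start, end, strand), with a deposited score of 0 in every row. Per the labels' protocols, the authors mapped tags to mm9 with Bowtie (version not given in the sources used here), kept 1 match per position, called peaks with MACS and normalized to IgG. Positions are still repeated in the deposited rows (7.56 to 31.5% of rows), so they precede those steps; IgG and peak files were not used here.

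Reads on the autosomes, X and Y were reduced to 1 per strand and 5′ position, and 5′ ends were shifted 75 bases inward. Windows of 1 kb on each side of gene-level starts of 22367 protein-coding genes (GENCODE vM1, NCBIM37) were counted, and enrichment was tested by Poisson tests with the adjustment and background given above. Calls in the Jarid1b libraries had to pass in both. Ratios used reads per 1000000 reads kept. GC trends were removed with a lowess fit over promoters (span 0.3), or with the ratio of mean reads in unmarked 1 kb autosomal bins in classes of GC content. Those bins lay over 5 kb from any start and held under 30 reads in Jarid1b replicate 1 and in the scramble library. A marked stretch is a run of 1 kb bins called against the genome rate. Promoter sequence was read from the assembly, and what is printed stops at the start, while the motif search also took 50 bases after it. Sequences for genes on chromosome 18 are not printed. The sequence of 1 further promoter that the rule selects is not reported here.

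Every member could be named. From each other pathway list, the genes with the highest and lowest ratio and those enriched for Jarid1b are named. The members and lists were chosen with earlier results of these data known. Draxin and Map2 were not matched by symbol and were not analysed here. Alternatives changed 1 choice at a time: window, threshold, background, start, repeats, shift, depth, scaling, read minimum, fold and GC trend. The ratio call and the Poisson enrichment call over a fixed background were tested on simulated counts. The local background, the GC adjustments and the marked stretches were not tested in that way. Python 3.11.15, NumPy 2.4.6, pandas 2.3.3, SciPy 1.17.1, statsmodels 0.14.6 and matplotlib 3.10.9 were used.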

Additional observations from a re-analysis of the deposited data

How the results depend on the processing

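The count of 31 members marked in scramble, 33 in knockdown and 0 lower in knockdown stayed within 1.5 times under every alternative run. The Jarid1b count of 11 was the least stable: it was 3 at an adjusted p of 0.001 (1.42% of all promoters), 5 with 500-base windows (5.84%), 33 with the positions of both libraries pooled (35.1%) and 0 with a background of the same GC content (0.528%). Leaving out a Jarid1b replicate in turn gave 11 (without replicate 1) to 32 (without replicate 2). The 23 members called higher became 15 with scaling to the median of all promoters, 15 with the promoter GC trend removed, 15 with at least 50 reads (23.3% of all promoters) and 9 with the GC trend of background bins removed, which was added after seeing the data. With all deposited rows kept, repeats included, 28 members were called higher with a median of 1.56, where 4404 of 13491 promoters were called. The median log2 ratio of 1.32 became 1.85 with 500-base windows, 0.91 with median scaling, 0.95 with the promoter GC trend removed and 0.38 with the background GC trend removed. That last setting reversed Fzd10 (−0.27) and Fzd8 (−0.26), which had been called higher, and turned Fzd4 (−0.58), Fzd5 (−0.02), Fzd7 (−0.18), Sfrp2 (−0.46), Sfrp4 (−0.41) and Wnt16 (−0.49), which had not, negative too. Why these values moved was not tested further, except that the read minimum leaves fewer promoters. Of 330 single-member values under the alternatives, 314 stayed positive and 16 were negative. These values repeat the same 33 members in the same 2 libraries, so they are not independent and their total does not measure reliability. At the main setting 69.5% of all promoters compared were above 0. Scaling also moves the balance over all promoters: 3184 higher and 315 lower became 1592 and 1193 with median scaling, which takes out a shift of 0.41, 4423 and 123 with scaling to background bins, 2366 and 51 with the promoter GC trend removed, and 502 and 1354 with the background GC trend removed. No paired analysis was possible because the H3K4me3 conditions have 1 library each. Depth limits the weakly marked ligands and Dkk promoters, as at Dkk2 (11 and 14 reads, 0.07 to 2.60).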
